A study of Homo sapiens with 19 samples.

Results

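The transcriptomes of SUZ12-/- H1 and WT H1 cells were compared by the samples that GEO labels as SUZ12 knockout and as control, 2 and 2 of the 19 samples of the series. H1 is an established human embryonic stem cell (hESC) line. Gene expression was given as TPM (transcript abundance), which is scaled by transcript length and to the same total in every sample. Of 33382 genes listed, 17238 had at least 1 TPM in at least 2 of these 4 samples and were tested.

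SUZ12 is a core subunit of Polycomb repressive complex 2 (PRC2). It holds the complex together with EED and one of the methyltransferases EZH1 and EZH2, which place methyl groups on lysine 27 of histone H3 (H3K27me3). The mark is known for keeping genes of later lineages silent, and in embryonic stem cells it lies over many genes of developmental regulators such as the HOX genes.

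SUZ12-/- H1 cells were made with CRISPR/Cas9, by homologous recombination that put a LoxP-flanked drug resistance cassette in place of a functional domain of SUZ12. The sample titles name 2 clones, DK30 (sample 1) and DK89 (sample 2), so the spread between them includes any difference between clones. WT H1 cells (samples 1 and 2) are the unedited line, for which no targeting, selection or cloning is described, so these steps and the loss of SUZ12 cannot be told apart here. Both groups were grown in mTeSR1 on matrigel. The labels do not say whether the WT H1 samples came from separate cultures, so p-values may measure a partly technical spread. The other lines of the series without a functional PRC2, EED-/- H1 and the double knockout EZH2-/-/EZH1-/- H1, have 2 samples each and were used only in the last comparison.

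TPM holds no read counts, so the depth of the libraries is unknown. The SUZ12-/- H1 samples had 22194 and 23012 genes above 0 TPM and the WT H1 samples 21244 and 21135. Across the 17238 genes, Spearman's rho was 0.991 between the SUZ12-/- H1 samples, 0.989 between the WT H1 samples, and 0.735 to 0.739 between a sample of either group. These are correlations across genes within samples, which are not independent replicates.

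A large part of the transcriptome differed between the groups, and more genes were higher than lower in SUZ12-/- H1 cells. With limma on log2(TPM + 1), 2885 genes rose (16.7% of those tested) and 1047 fell (6.07%) where a call needed an adjusted p (Benjamini-Hochberg) no higher than 1% and at least a 3-fold change. Both SUZ12-/- H1 samples lay above both WT H1 samples for 51.0% of all genes tested and below both for 35.4%. The genes that rose had a median of 1.10 TPM in WT H1 and 17.2 TPM in SUZ12-/- H1 cells, and 332 of them were listed at 0 in both WT H1 samples. The genes that fell had a median of 35.2 TPM in WT H1 and 5.47 TPM in SUZ12-/- H1 cells. Genes that rose made up 1.78% of all TPM in either WT H1 sample and 21.8 and 21.95% in the SUZ12-/- H1 samples. With 2 samples a group the test had 2 residual degrees of freedom, and with either SUZ12-/- H1 clone left out no gene passed the 1% threshold. The smallest adjusted p was then 0.0146 without DK30 and 0.0147 without DK89, 10439 and 10522 genes had an unadjusted p under 0.05, and all 3932 genes called with both clones kept their direction. In a fit that also held the other knockout lines (12 samples), 2785 genes rose and 1004 fell, and 2348 and 2424 rose without DK30 or without DK89.

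**Figure D1:**
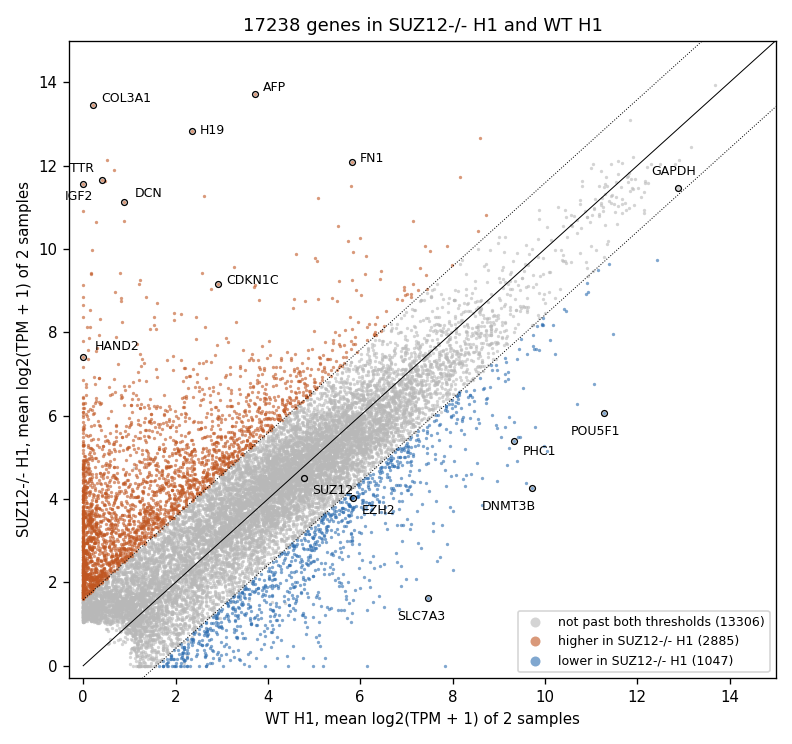
Mean log2(TPM + 1) of the 2 SUZ12-/- H1 samples (y axis) against that of the 2 WT H1 samples (x axis) for the 17238 genes tested. Orange points are the 2885 genes that rose, blue points the 1047 that fell, the solid line marks equal values and the dotted lines a fold change of 3, and many of the orange points stand at the left edge, near 0 in WT H1 cells.

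The differences below are limma estimates on the log2(TPM + 1) scale with their standard error (2 against 2 samples), on which changes of genes with few TPM are understated. Levels are in TPM, given for samples 1 and 2 in that order. Over all genes tested, the median difference was 0.23. The shares over all genes, for reading the counts of a list, are 16.7% that rose and 6.07% that fell. A gene under 1 TPM in both WT H1 samples was tested only where both SUZ12-/- H1 samples reached 1 TPM, which fixes its direction. Such members of any list below could not have fallen, so the lack of falls among them is no result. Of the 2885 genes that rose, 1396 had a mean under 1 TPM in WT H1 cells. In a bulk sample, fewer cells of a type and less RNA per cell cannot be told apart, which holds for every difference given here.

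The targeted gene itself was not lost at the level of its whole mRNA. SUZ12 (chromosome 17, 31937007 to 32001038, GRCh38) had 25.2 and 27.9 TPM in WT H1 and 22.9 and 20.8 TPM in SUZ12-/- H1 cells, a difference of -0.27 ± 0.11 that did not pass (adjusted p = 0.075). A value for the whole gene does not show whether the deleted part is read, so it does not check the labels. Of its core partners, EZH2 fell from 54.5 and 58.9 to 16.9 and 13.96 TPM (-1.82 ± 0.12, adjusted p = 5.5e-05). EED stood at 17.3 and 21.96 TPM in WT H1 and 27.03 and 26.1 TPM in SUZ12-/- H1 cells, and EZH1 at 13.7 and 14.3 against 12.1 and 13.3 TPM, and neither passed. Among all 13 PRC2 subunits and cofactors tested, 1 rose (7.69%, against 16.7% of all genes), 2 fell (15.4%, against 6.07%) and 10 did not pass. JARID2, a cofactor that helps bring PRC2 to its targets, fell from 119 and 106 to 20.1 and 18.4 TPM, and C17orf96, another cofactor of PRC2, rose from 1.44 and 1.62 to 5.99 and 7.34 TPM.

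Other chromatin regulators shifted between their family members. Of 20 subunits of PRC1, the second Polycomb complex, 6 rose and 2 fell. BMI1 rose from 2.12 and 2.99 to 71.0 and 66.5 TPM, a difference of 4.30 ± 0.16, and PHC2 from 6.93 and 5.07 to 58.3 and 57.2 TPM. PHC1 fell from 698 and 596 to 39.2 and 42.4 TPM (-3.95 ± 0.10), so that of these sister subunits one rose while the other fell. Among 7 genes of DNA methylation and its removal, DNMT3B, a de novo DNA methyltransferase, fell from 846 and 840.4 to 24.9 and 13.2 TPM (-5.46 ± 0.26). TET1 and UHRF1 fell with it, TET2 rose from 0.74 and 0.92 to 7.21 and 7.13 TPM, and DNMT1, the maintenance enzyme, stood at 104 and 107 against 58.5 and 58.0 TPM without passing. KDM6B, which removes methyl groups from H3K27, rose from 0.66 and 1.24 to 15.3 and 16.3 TPM and was the 1 of 10 demethylase and trithorax genes that passed.

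The labels call both groups human embryonic stem cells, but the markers that define such cells were low in SUZ12-/- H1 cells. Of 30 genes of core and primed pluripotency, 23 fell, 7 did not pass and 0 rose, with a median difference of -2.90 (21 fell in the fit of 12 samples). POU5F1 (OCT4), the central factor of the pluripotency network, had 2531 and 2428 TPM in WT H1 and 91.0 and 47.0 TPM in SUZ12-/- H1 cells (-5.22 ± 0.28). NANOG fell from 140.4 and 97.5 to 5.31 and 3.36 TPM, and SOX2 from 165 and 219 to 10.3 and 9.17 TPM. In each of these 3 factors the SUZ12-/- H1 samples were far below both WT H1 samples, yet none was at 0. LIN28A, an RNA-binding protein of stem cells, fell from 641 and 779 to 47.2 and 40.4 TPM, and TDGF1, a co-receptor of NODAL, from 939 and 1179.7 to 47.1 and 25.2 TPM. The largest falls of the list were those of POLR3G (-5.71 ± 0.18) and USP44 (-5.47 ± 0.15). Among the 7 members that did not pass were THY1, with 646 and 468 TPM against 198 and 212 TPM, SALL4 (57.8 and 65.8 against 25.6 and 25.0 TPM), LIN28B (45.3 and 48.6 against 27.4 and 26.4 TPM), LEFTY1, whose WT H1 samples differed from each other (35.7 and 9.15 TPM), and the ligand NODAL (12.3 and 8.16 against 10.5 and 10 TPM). Of 8 tested genes of naive pluripotency, 4 rose (TBX3, KLF5, KLF2 and KLF4), all of which are also known in differentiated tissues, and DPPA5, DPPA3, TFCP2L1 and SUSD2 did not pass.

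The 15 largest falls of the whole comparison hold, beside DNMT3B and several genes of this list, non-coding RNAs and genes of metabolism. LINC00678, a non-coding RNA, fell from 775 and 759 to 20.3 and 19.9 TPM. FOXD3-AS1, antisense to FOXD3 and possibly sharing reads with it, fell from 211 and 190.5 to 5.02 and 4.39 TPM. NMRK2, a kinase of nicotinamide riboside, fell from 83.9 and 96.2 to 2.04 and 1.29 TPM, and FGFBP3, which binds FGF, from 130 and 165 to 2.67 and 3.91 TPM. RP11-386G11.10, the largest, had 279 and 186 TPM in WT H1 cells and was listed at 0 in both clones.

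**Figure D2:**
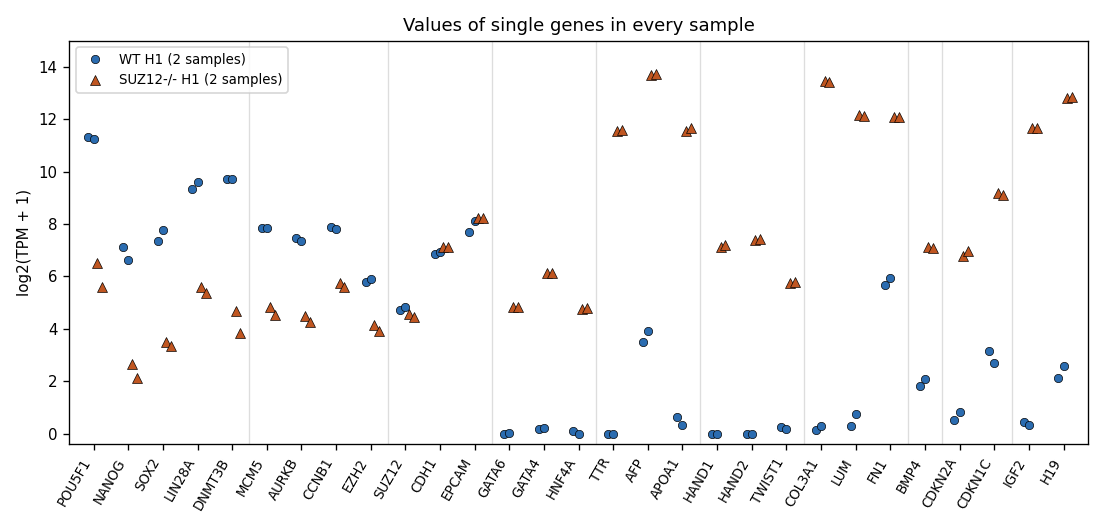
Log2(TPM + 1) of single genes (y axis) in each of the 2 WT H1 samples (blue circles) and the 2 SUZ12-/- H1 samples (orange triangles), grouped by role. The samples of a group lie close together, with POU5F1 at 2531 and 2428 TPM in WT H1 and 91.0 and 47.0 TPM in SUZ12-/- H1 cells, while SUZ12, CDH1 and EPCAM differ little.

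Genes of the cell division cycle fell nearly as a block. Of 28 genes of DNA replication and mitosis, 25 fell, 0 rose and 3 did not pass, with a median difference of -2.54. MCM5, part of the helicase that opens DNA for replication, had 231 and 227 TPM in WT H1 and 27.6 and 22.2 TPM in SUZ12-/- H1 cells (-3.16 ± 0.11). CDC6, which loads this helicase, fell from 102 and 119 to 11.6 and 7.49 TPM. AURKB, a mitotic kinase, fell from 178 and 163 to 21.3 and 18.3 TPM, and CCNB1, the mitotic cyclin B1, from 237 and 225 to 52.3 and 47.9 TPM. CDK1, TYMS and RRM1 did not pass, with CDK1 at 103 and 87.8 against 49.2 and 43.1 TPM. Of 15 inhibitors of cyclin-dependent kinases, G1 cyclins and their kinases, 8 rose and 1 (CCNE2) fell. CDKN1C, the inhibitor p57, rose from 7.93 and 5.42 to 577 and 556 TPM (6.23 ± 0.16). CDKN2A, a locus that PRC2 is known to silence, rose from 0.44 and 0.77 to 109 and 126 TPM, and its neighbour CDKN2B from 0.13 and 0.10 to 38.3 and 34.1 TPM. CDKN1A, the inhibitor p21, rose to 179 and 175 TPM from 6.15 and 21.4 TPM, where the WT H1 samples differed from each other.

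Genes of endoderm and of its yolk sac and liver derivatives were among the largest rises of the whole comparison. Of 20 transcription factors of endoderm, 15 rose and 0 fell. The list summed to 26.7 and 27.3 TPM in the WT H1 samples, of which FOXA3 held 18.6 and 18.5 TPM. The filter fixed the direction of members under 1 TPM in both of these samples, such as GATA4, GATA6, HNF4A and FOXA1. GATA4 rose from 0.13 and 0.16 to 68.7 and 69.3 TPM and GATA6 from 0 and 0.03 to 27.7 and 27.7 TPM, both of them factors of early endoderm and of the heart. HNF4A, a factor of liver and gut epithelium, rose from 0.07 and 0 to 25.8 and 26.7 TPM, and FOXA1 from 0 and 0.06 to 21.3 and 20.3 TPM. FOXA3 stood at 18.6 and 18.5 TPM in WT H1 and 8.53 and 8.84 TPM in SUZ12-/- H1 cells without passing. With FOXA3, 5 of the 20 factors did not pass.

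The secreted proteins of liver and yolk sac rose with them, 34 of 38 tested, with a median difference of 4.27 and 0 that fell. Summed over the listed genes, they held 1075 and 1246 TPM in WT H1 and 30874 and 32033 TPM in SUZ12-/- H1 cells. AFP (alpha-fetoprotein, chromosome 4, 73431138 to 73456174), the main serum protein of the fetus, was at 10.2 and 14.3 TPM in WT H1 and at 13208 and 13695 TPM in SUZ12-/- H1 cells (10.003 ± 0.14). TTR (transthyretin), a carrier of thyroid hormone and retinol, was listed at 0 in both WT H1 samples and had 2997 and 3079.8 TPM in SUZ12-/- H1 cells. APOA1, the main protein of high-density lipoprotein, rose from 0.55 and 0.25 to 3036 and 3267 TPM. SERPINA1, an inhibitor of neutrophil elastase, rose from 0.15 and 0.27 to 1592 and 1623 TPM, FGB, a chain of fibrinogen, from 0.10 and 0.20 to 1003 and 1022 TPM, and ALB (albumin) from 0.36 and 0.08 to 184 and 193 TPM. The level of AFP was thus about as high in both clones and far above that of ALB. APOE and APOC1, which WT H1 cells already expressed, did not pass, with APOE at 859 and 1033 against 1919 and 2009 TPM.

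Genes of metabolic liver function rose in part, and some remained near 0. Of 17 tested liver enzymes, 9 rose and 0 fell. ALDH1A1, an enzyme of retinoic acid synthesis, rose from 1.14 and 1.43 to 130.0 and 131 TPM, and TDO2, which breaks down tryptophan, from a listed 0 in both samples to 47.8 and 46.1 TPM. ASS1 and CPS1 of the urea cycle did not pass, with CPS1 at 12.1 and 10.9 against 9.81 and 8.80 TPM. Markers of mature hepatocytes stayed under the level for testing, with CYP3A4 at 0.31 and 0.63 TPM, TAT at 0 and 0.37 TPM and UGT1A1 at 0 in the SUZ12-/- H1 samples. Of 15 genes of lipoprotein assembly and lipid uptake, 9 rose, among them MTTP, which loads lipid onto apolipoprotein B, from 0.59 and 0.34 to 59.6 and 61.2 TPM, and FABP1, a fatty acid binding protein of liver and gut, from 0.21 and 0 to 264 and 291 TPM. Of 26 genes of complement and coagulation, 19 rose, with CFI from 0 and 0.09 to 106 and 109.7 TPM and prothrombin (F2) from 0.18 and 0.06 to 36.8 and 36.4 TPM. Of 20 genes of gut and pancreas epithelium, 18 rose, among them the intestinal mucin MUC13 (listed at 0 in WT H1, 116 and 112 TPM in SUZ12-/- H1 cells), the intestinal cadherin CDH17 (0.35 and 0.09 to 81.6 and 87.0 TPM) and SST (somatostatin, 0.75 and 0.98 to 95.3 and 98.3 TPM). The gut and pancreas list summed to 17.2 and 12.75 TPM in the WT H1 samples. MUC13, CDH17 and SST were under 1 TPM in both, so the filter fixed their direction.

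Mesenchymal genes rose as well. Of 33 tested genes of the interstitial matrix, 31 rose and 0 fell, with a median difference of 5.03, and the listed genes summed to 505 and 567 TPM in WT H1 and to 35690 and 35360 TPM in SUZ12-/- H1 cells. COL3A1 (chromosome 2, 188974373 to 189012746), the chain of fibrillar collagen III, had the largest difference of all genes tested, with 0.11 and 0.22 TPM in WT H1 and 11279 and 11055 TPM in SUZ12-/- H1 cells (13.23 ± 0.08). The small proteoglycans that bind collagen fibrils rose with it, LUM from 0.22 and 0.69 to 4637 and 4406 TPM and DCN from 0.66 and 1.07 to 2165 and 2287 TPM. COL1A1, of collagen I, was already at 38.5 and 28.6 TPM in WT H1 cells and rose to 2397 and 2397 TPM. ELN (elastin) and THBS2 did not pass, with ELN at 6.38 and 5.49 against 6.83 and 5.95 TPM. In the collagen family as a whole, 30 of 39 members rose and 0 fell. Of 22 genes of basement membrane, 16 rose, among them COL4A1 from 33.0 and 30.4 to 894 and 876 TPM.

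Of 13 tested regulators and markers of epithelial-mesenchymal transition (EMT), 12 rose. The EMT factors ZEB2 (0.07 and 0.26 to 64.5 and 65.0 TPM), SNAI2 (0.79 and 0.76 to 89.6 and 88.2 TPM) and TWIST1 (0.20 and 0.14 to 53.5 and 54.7 TPM) did so together, whereas SNAI1 stood at 14.1 and 7.71 against 14.3 and 15.9 TPM. Fibronectin (FN1) rose from 50.5 and 60.4 to 4382 and 4324 TPM. Most epithelial genes did not fall in turn. CDH1 (E-cadherin) had 116 and 123 TPM in WT H1 and 138 and 138 TPM in SUZ12-/- H1 cells, and EPCAM 207 and 279 against 298 and 297 TPM, and neither passed. Of 18 genes of simple epithelium, 7 rose, with KRT8 from 474 and 376 to 1781 and 1832 TPM, and 2 fell, with ESRP1, a splicing factor of epithelia, from 103 and 103 to 27.3 and 26.2 TPM. Genes that mark mesenchyme and genes that mark epithelium were hence both high in the same bulk samples.

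Among mesodermal lineages, factors that specify heart and lateral plate rose, while contractile genes of the cardiac and smooth muscle lists rose or did not pass. Of 19 genes of cardiac mesoderm, 14 rose and 0 fell (12 rose in the fit of 12 samples). HAND1 and HAND2, paired factors of the heart and of extraembryonic mesoderm, were listed at 0 in both WT H1 samples and had 139 and 147 TPM and 167 and 170.1 TPM in SUZ12-/- H1 cells. ISL1, a factor of the second heart field, rose from 0.04 and 0.24 to 29.6 and 29.3 TPM. The sarcomere genes ACTC1 (30.6 and 37.6 to 148 and 151 TPM) and TNNT2 (23.5 and 26.4 to 78.4 and 77.2 TPM) rose, calls lost in the fit of 12 samples, while TNNC1 (14.5 and 16.9 against 44.6 and 39.2 TPM) and MYL7 (6.30 and 3.32 against 14.5 and 9.46 TPM) did not pass. Of 15 contractile genes of smooth muscle, 7 rose, led by ACTA2, smooth muscle actin, from 1.90 and 1.88 to 326 and 334 TPM. TPM2 stood at 408 and 464 against 406 and 442 TPM. Of 24 genes of a list named for paraxial and intermediate mesoderm, 13 rose and 2 fell. The list also holds factors of other mesoderm, so the count is not one of paraxial and intermediate mesoderm alone. Among these, FOXF1, a factor of visceral mesoderm, went from a listed 0 in both WT H1 samples to 25.0 and 27.9 TPM.

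In the endothelial list 13 of 20 genes rose and 0 fell. PLVAP, a protein of fenestrated endothelium, rose from 0.10 and 0.05 to 69.1 and 67.6 TPM and the adhesion molecule PECAM1 from 0.21 and 0 to 25.5 and 21.0 TPM. KDR, a receptor of VEGF that WT H1 cells expressed, stood at 50.9 and 66.1 against 55.8 and 55.2 TPM. Of 10 tested genes of blood formation, 6 rose, among them RUNX1 from 0.12 and 0.29 to 12.1 and 13.5 TPM. Markers of blood cells themselves were near 0 in SUZ12-/- H1 cells, with PTPRC (CD45) at 0.09 and 0.06 TPM, GATA1 at 0.15 and 0 TPM and the globin HBE1 at 1.61 and 0.71 TPM.

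Markers of trophoblast and amnion, the lineages that form next to the embryo, rose in 15 of 19 genes tested and fell in 0. The placental hormone genes CGB, CGB5 and INSL4 and the pregnancy-specific glycoprotein genes PSG1, PSG3 and PSG4 were listed at 0 in both SUZ12-/- H1 samples and were not tested. VTCN1 rose from 0 and 0.20 to 34.4 and 31.2 TPM, TFAP2A from 0.29 and 0 to 30.4 and 31.2 TPM, and GATA2 from 0.31 and 0 to 22.1 and 24.5 TPM. IGFBP3, which several other tissues also express, had the largest difference of the list, from 3.62 and 7.12 to 2439 and 2515 TPM. GABRP, at 246 and 288 TPM in WT H1 and 234 and 238 TPM in SUZ12-/- H1 cells, CYP19A1, TFAP2C and ERVW-1 did not pass. Several members (HAND1, ISL1, GATA2, TFAP2A) also stand in the cardiac, blood or neural crest lists and mark more than 1 lineage. Of 9 genes of surface ectoderm, 6 rose, with KRT17 from 0.67 and 0.53 to 28.9 and 31.8 TPM.

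Neural genes moved both ways. Of 19 genes of neural plate and forebrain, 7 fell, 5 rose and 7 did not pass. Most of those that fell are expressed in primed stem cells as well as in early neuroectoderm. ZIC2 had 143 and 128 TPM in WT H1 and 10.1 and 9.04 TPM in SUZ12-/- H1 cells (-3.70 ± 0.11), SOX3 16.2 and 18.4 against 0.09 and 0.17 TPM, and POU3F1 21.1 and 11.8 against 0.44 and 0.29 TPM. ZIC1, of the same family as ZIC2, rose from 0.21 and 1.10 to 25.7 and 26.6 TPM, and PAX6, a factor of neuroectoderm and of pancreatic islets, from 0.41 and 0.70 to 7.94 and 5.66 TPM. OTX2 was at 30.2 and 57.6 against 11.3 and 15.7 TPM and NES at 97.8 and 87.9 against 49.2 and 45.6 TPM, without passing. Of 14 neuronal genes, 6 fell and 2 rose, with TUBB3, a neuronal tubulin, from 269 and 340.3 to 49.4 and 43.0 TPM and STMN2 from 4.13 and 5.39 to 152 and 152 TPM. Of 10 genes of neural crest, 4 rose and 2 fell.

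Genes of all 4 HOX clusters were expressed in SUZ12-/- H1 cells. HOX genes encode homeodomain factors that give positions along the body axis, and their numbers 1 to 13 follow their order in the clusters. Of the HOX genes listed, 36 were tested and 3 stayed under 1 TPM in all 4 samples. Among the 36, 32 were listed at 0 in both WT H1 samples, and the highest value in any WT H1 sample was 0.19 TPM. Each of them was thus tested only because both SUZ12-/- H1 samples reached 1 TPM, which fixes the direction, and 31 passed the thresholds. HOXA10 had 26.6 and 29.0 TPM in SUZ12-/- H1 cells, HOXC10 26.6 and 27.5 TPM, HOXD11 21.8 and 24.3 TPM and HOXB7 18.7 and 15.8 TPM, each the highest of its cluster. Members numbered 9 to 13 held 84.3 and 81.9% of the summed TPM of the tested genes of HOXA (chromosome 7), 85.8 and 84.7% in HOXD (chromosome 2) and 56.3 and 60.2% in HOXC (chromosome 12). In HOXB (chromosome 17), whose members of that range are HOXB9 and HOXB13, both tested, they held 27.7 and 26.5%. The genes that did not pass, HOXA4, HOXA6, HOXB4, HOXD1 and HOXD3, were those with the fewest TPM, for example 1.79 and 1.93 TPM for HOXA4.

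**Figure D3:**
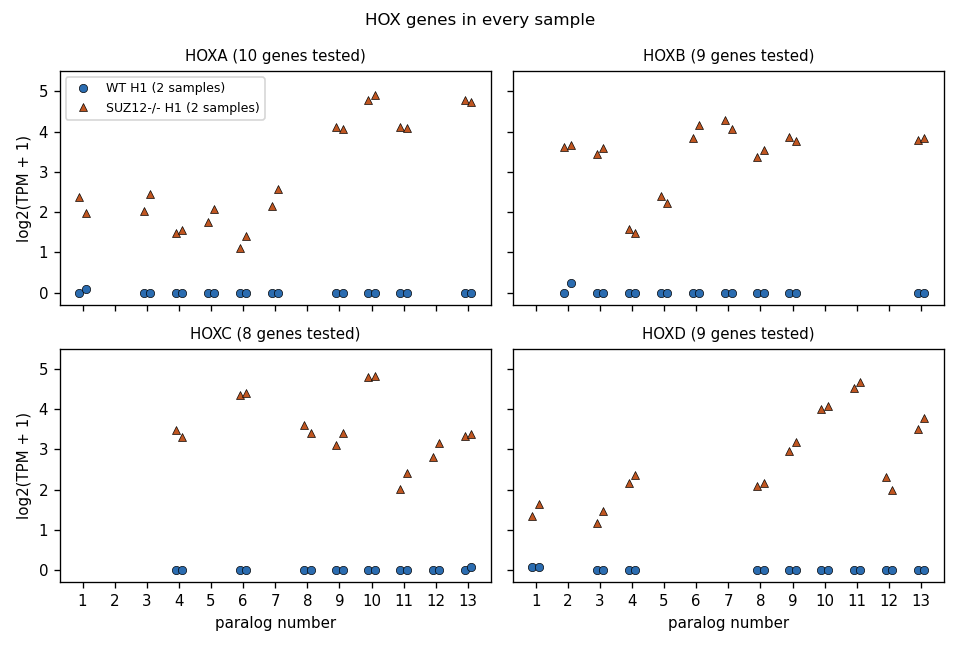
Log2(TPM + 1) of the tested HOX genes (y axis) against their paralog number (x axis) in the 2 WT H1 samples (blue circles) and the 2 SUZ12-/- H1 samples (orange triangles), one panel per cluster. WT H1 samples lie at or near 0 throughout, and in HOXA and HOXD the highest values belong to paralogs 9 to 13, such as HOXA10 with 26.6 and 29.0 TPM.

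Other families of developmental regulators differed in how many members rose. All 5 GATA factors tested rose, as did 9 of 13 T-box factors, led by TBX3 (0.05 and 0 to 76.0 and 80.0 TPM), and 0 of either family fell. The listed GATA genes summed to only 0.59 TPM in each WT H1 sample. Each GATA factor was thus tested only because both SUZ12-/- H1 samples reached 1 TPM, which fixes the direction. The HOX cofactors MEIS1 and MEIS2 rose from 0.53 and 0.07 to 24.8 and 22.3 TPM and from 0.43 and 0.04 to 30.8 and 30.9 TPM. Forkhead and SOX factors split, with 12 of 34 and 7 of 17 that rose and 3 and 4 that fell. Those that fell include FOXH1, which works with SMAD proteins downstream of NODAL (71.2 and 74.4 to 4.78 and 4.50 TPM), and FOXD3 (16.8 and 18.1 to 0.53 and 0.68 TPM). KRAB and other ZNF genes are a contrast, with 17 of 463 that rose and 24 that fell, and a median difference of -0.16.

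Most genes of a list of BMP and GDF genes and targets of the BMP pathway rose, and so did most inhibitors of the pathway. Of 21 tested genes of this list, 17 rose and 0 fell (16 rose in the fit of 12 samples), with a median difference of 3.67. BMP and GDF genes were listed by name, BMP1 and GDF15 included, so the count is not one of BMP ligands and targets alone. BMP4 had 2.50 and 3.25 TPM in WT H1 and 139 and 135 TPM in SUZ12-/- H1 cells (5.16 ± 0.13), and GDF6 and BMP5 rose from under 0.30 TPM to 35.7 and 34.4 TPM and 22.5 and 19.9 TPM. The targets MSX1 (0.17 and 0.48 to 47.9 and 51.3 TPM) and MSX2 (0.81 and 1.06 to 32.5 and 41.3 TPM) rose, whereas ID1 (132 and 102 against 252 and 258 TPM) and ID3 (154 and 114 against 164 and 171 TPM), also direct targets, did not pass. Of 15 antagonists of BMP and activin, 11 rose and 1 (CHRDL1) fell, among them GREM1 from 0.19 and 0.36 to 52.5 and 56.2 TPM and NOG from 0.17 and 0.18 to 10.96 and 10.1 TPM. Of 14 genes of TGF-beta and its latent complexes, 11 rose and 1 (INHBE) fell, with TGFB1 from 5.28 and 6.25 to 82.3 and 77.4 TPM and TGFBI, an extracellular protein induced by TGF-beta, from 13.9 and 10.8 to 563 and 559 TPM.

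WNT ligands rose in 10 of 12 tested genes and fell in 0. All 19 listed ligands summed to 5.39 and 5.06 TPM in the WT H1 samples. For members under 1 TPM in both of these, the filter fixed the direction. WNT2 and WNT6 were listed at 0 in WT H1 cells and had 68.6 and 65.5 TPM and 19.1 and 22.7 TPM in SUZ12-/- H1 cells, and WNT5A rose from 1.06 and 0.80 to 34.9 and 36.3 TPM. Among modulators of the pathway, the activators RSPO3 (0.04 and 0.36 to 108 and 108 TPM) and RSPO2 and the inhibitors DKK1 (0 and 0.67 to 78.0 and 75.3 TPM) and FRZB rose alike. AXIN2, a common target of the canonical pathway, stood at 8.94 and 12.7 against 25.6 and 25.4 TPM without passing, while LEF1, a factor of that pathway, rose from 0.26 and 0.44 to 39.1 and 36.2 TPM. In the retinoic acid list 8 of 18 genes rose, with the synthesis enzyme ALDH1A2 from 0 and 0.04 to 36.8 and 40.5 TPM and the receptor RARB from 0.13 and 0.09 to 18.2 and 15.3 TPM. CRABP1, a retinoic acid binding protein, was the 1 gene of that list that fell, from 348 and 276 to 21.5 and 24.2 TPM. The FGF list had 5 rises and 2 falls among 19 genes (26.3 and 10.5%, against 16.7 and 6.07% of all genes). FGFR1 stood at 223 and 214 against 99.4 and 101 TPM without passing, and FGF7, a ligand made by mesenchyme, rose from 0.59 and 2.05 to 82.9 and 96.4 TPM. Of 17 Notch genes, 6 rose, led by the target HEY1 (1.63 and 1.24 to 32.2 and 33.4 TPM).

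Fetal growth genes and imprinted genes, which are expressed from the copy of 1 parent, included some of the largest rises. IGF2 (chromosome 11, 2129112 to 2158391), a growth factor of the fetus, rose from 0.38 and 0.27 to 3207 and 3285 TPM (11.26 ± 0.08). Its neighbour H19 (1995166 to 2004552), a non-coding RNA, rose from 3.33 and 5.01 to 7135 and 7399.9 TPM, so that both genes of this oppositely imprinted pair rose. DLK1, on chromosome 14, rose from 0.30 and 0.96 to 3771 and 3834 TPM, and its neighbour RTL1 from a listed 0 to 8.84 and 9.74 TPM. Of 20 imprinted genes, 10 rose, 1 (SNRPN) fell and 9 did not pass. Those that did not pass include the highly expressed GNAS (891 and 966 against 1228 and 1208 TPM) and PEG10 (99.0 and 82.8 against 173 and 168 TPM). Binding proteins of IGF rose unevenly. IGFBP7 (0.75 and 0.78 to 413 and 454 TPM) and IGFBP5 (0.65 and 0.96 to 302 and 308 TPM) rose, and IGFBP2 stood at 351 and 272 against 356 and 375 TPM.

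Some genes of antigen presentation rose as well. Of 14 genes of MHC class I presentation, 6 rose and 0 fell. B2M, the invariant light chain, rose from 135 and 147 to 1630.1 and 1636 TPM (3.53 ± 0.06) and HLA-B from 84.0 and 88.1 to 699 and 718 TPM, while HLA-C (270.1 and 303 against 789.9 and 790.4 TPM) did not reach a fold change of 3. Counting of these similar genes may share reads between them. Of 20 interferon-stimulated genes, 6 rose, with IFI6 from 4.05 and 5.71 to 55.1 and 47.8 TPM, and IFITM1 stood at 388 and 346 against 255 and 253 TPM. Of 27 chemokines and their receptors, 14 rose, led by CXCL14 (0.38 and 1.5 to 1615 and 1666 TPM). Of 14 genes of the S100 family of calcium-binding proteins, 10 rose, with S100A6 from 59.0 and 46.3 to 1133 and 1216 TPM.

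Few genes of oxidative phosphorylation, cholesterol synthesis, glycolysis and the ribosome passed the thresholds, although many differed by less than 3-fold. Of 21 genes of oxidative phosphorylation and of 16 of cholesterol synthesis, 0 rose and 0 fell by limma, with median differences of -0.07 and -0.08. An unadjusted p under 0.05 in that test was reached by 14 and 11 of them, and by 12961 of all 17238 genes tested. The fit of 12 samples also called 0 in both lists. Of 25 genes of glycolysis, 2 rose, among them the liver glucose transporter SLC2A2 (listed at 0 in WT H1, 2.88 and 2.16 TPM in SUZ12-/- H1 cells). GAPDH, at 7195 and 7867 against 2788 and 2848 TPM, and ENO1, at 2019 and 2064 against 1071 and 1064 TPM, were lower without reaching a fold change of 3, and the list summed to 17118 and 17921 TPM in WT H1 and 9536 and 9582 TPM in SUZ12-/- H1 cells. Of 83 proteins of the cytosolic ribosome, 1 rose and 2 fell, with RPL39L, a form known from testis and stem cells, falling from 522 and 543 to 42.9 and 44.5 TPM. Of 77 mitochondrial ribosomal proteins, 1 fell, MRPL11, from 191 and 183 to 38.7 and 37.3 TPM, while 65 of them were lower in both clones than in both WT H1 samples (35.4% of all genes), with a median difference of -0.64. Of 285 solute carriers, 78 rose (27.4%, against 16.7% of all genes) and 10 fell, and the ends of that range were SLC40A1, the iron exporter (listed at 0 in WT H1, 73.6 and 69.0 TPM in SUZ12-/- H1 cells), and SLC7A3, a transporter of cationic amino acids (149 and 205 to 1.77 and 2.42 TPM).

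Promoters of genes that rose held fewer CpG dinucleotides than those of other genes. The window from 250 bases before to 50 after the start site of the canonical transcript (GENCODE release 44, GRCh38) could be read for 17068 of the 17238 genes. The ratio of observed to expected CpG had a median of 0.818 over all of them, 0.698 in 2864 genes that rose, 0.793 in 1043 that fell and 0.838 in the 13161 others. At least 0.6 was reached by 76.5% of all windows, 58.8% of those of genes that rose and 72.5% of those of genes that fell. The letters TATAAA on the coding strand were in 9.39% of the windows of genes that rose and in 5.07% of all. These are descriptions of groups formed by the test, and which factor binds was not measured.

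The lists that rose lay at both ends of this range. The 38 liver and yolk sac genes had a median ratio of 0.225, and 5.26% of them reached 0.6, while all 10 HOXA windows and all 5 GATA windows reached it. The other HOX clusters differed, with 9 of 9 windows in HOXB, 5 of 8 in HOXC and 8 of 9 in HOXD. The median ratios of HOXB and HOXC, 0.715 and 0.693, were below that of all genes. Of the lists that fell, DNA replication and mitosis had a median of 0.941, with all 28 windows at 0.6 or more. CCAAT, on either strand, was in 82.1% of these 28 windows and in 35.2% of all, and TTTGAA, on either strand, in 39.3% and 10.2%. CCAAT was not particular to genes that fell, of which 43.7% held it. It was in 87.5% of windows of cholesterol synthesis, a list with 0 calls, and in 80.0% of HOXA windows, but in 14.3% of those of oxidative phosphorylation. The following promoters from RefSeq (GRCh38.p14), from 250 bases before to 50 after the start, are shown with each CpG in capitals. They are examples of a low ratio and of higher ones and do not span the whole range. AFP (chr4:73435971-73436270, plus strand) and GATA6 (chr18:22169339-22169638, plus strand) belong to genes that rose, from 10.2 and 14.3 and from 0 and 0.03 TPM, and CCNB1 (chr5:69166900-69167199, plus strand) to one that fell.
AFP: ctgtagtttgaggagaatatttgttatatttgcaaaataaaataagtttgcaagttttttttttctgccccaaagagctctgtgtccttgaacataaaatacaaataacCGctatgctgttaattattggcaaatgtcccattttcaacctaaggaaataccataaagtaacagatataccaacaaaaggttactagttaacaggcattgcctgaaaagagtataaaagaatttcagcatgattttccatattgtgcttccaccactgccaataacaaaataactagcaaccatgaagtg
GATA6: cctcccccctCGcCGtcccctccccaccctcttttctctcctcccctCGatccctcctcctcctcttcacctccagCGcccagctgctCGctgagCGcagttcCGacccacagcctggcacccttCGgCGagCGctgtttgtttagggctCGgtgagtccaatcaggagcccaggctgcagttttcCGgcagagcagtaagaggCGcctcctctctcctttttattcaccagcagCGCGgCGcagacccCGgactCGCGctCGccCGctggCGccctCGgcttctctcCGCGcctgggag
CCNB1: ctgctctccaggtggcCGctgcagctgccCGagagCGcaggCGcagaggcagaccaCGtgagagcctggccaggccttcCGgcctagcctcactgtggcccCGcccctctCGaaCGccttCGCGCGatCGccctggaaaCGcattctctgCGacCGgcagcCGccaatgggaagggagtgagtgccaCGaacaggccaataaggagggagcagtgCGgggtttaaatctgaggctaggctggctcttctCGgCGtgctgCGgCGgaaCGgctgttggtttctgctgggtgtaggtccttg
AFP has 1 CpG in its 300 bases and TATAAA shortly before the start, GATA6 has 25 CpG and CCNB1 24, and their ratios are 0.123, 0.824 and 0.753. The ratio of CCNB1 is below the median of its list, DNA replication and mitosis (0.941).

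SUZ12-/- H1 cells were last set against the other PRC2-null lines, to find where they differ from both. In the fit of 12 samples (19100 genes), 499 genes (2.61%) were higher in SUZ12-/- H1 than in EED-/- H1 and than in EZH2-/-/EZH1-/- H1 cells, and 151 (0.791%) were lower than in both, at the same thresholds. The contrasts share the SUZ12-/- H1 samples, and clone, passage and date of these lines cannot be told apart from the gene that was deleted. Of the 499 genes, 441 had also risen against WT H1 cells. Without DK30 or without DK89 the counts were 304 and 315 higher and 45 and 45 lower.

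The 10 genes with the largest differences above both lines include secreted proteins of liver, gut and connective tissue. AHSG (fetuin-A), a secreted liver protein, had 673 and 699.6 TPM in SUZ12-/- H1, 1.08 and 12.4 TPM in EED-/- H1 and 0 and 0.30 TPM in EZH2-/-/EZH1-/- H1 cells. APOA4, an apolipoprotein of gut and liver, had 1878 and 1943 TPM against 23.0 and 51.3 TPM and 10.7 and 6.18 TPM. DCN had 2165 and 2287 TPM against 30.9 and 26.3 TPM and 10.7 and 5.26 TPM, and MGP, an inhibitor of calcification in cartilage and vessels, 636 and 724 TPM against 6.79 and 4.21 TPM and 2.82 and 3.20 TPM. In each of these the SUZ12-/- H1 samples stood above all 4 samples of the other lines, which were nearer to WT H1 cells. FABP1, PTGDS, RBP2, MUC13 and AGT were also among the 10 with the largest differences. By list, 24 of 38 liver and yolk sac secreted proteins, 10 of 21 gut and pancreas genes, 10 of 24 serpins, 7 of 33 genes of interstitial matrix and 4 of 6 UDP-glucuronosyltransferases were higher than in both lines.

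The 10 genes with the largest differences below both lines included genes of muscle and heart. Of 20 genes of cardiac mesoderm, 3 were higher and 2 lower than in both lines, and of 15 of smooth muscle, 1 was higher and 2 lower. NPPB, a natriuretic peptide of the heart, had 16.8 and 14.4 TPM in SUZ12-/- H1, 247 and 438 TPM in EED-/- H1 and 634 and 742 TPM in EZH2-/-/EZH1-/- H1 cells, and only 0.33 and 0 TPM in WT H1 cells. MYL7, an atrial myosin light chain, had 14.5 and 9.46 TPM against 210.1 and 375 TPM and 371 and 579 TPM. ACTA1, skeletal muscle actin, was at 4.32 and 3.67 TPM, below the 37.0 and 35.2 TPM of WT H1 cells, whereas the other lines had 95.97 and 129.8 TPM and 78.4 and 323 TPM. ANKRD1, a stress-responsive gene of heart muscle, had 69.8 and 55.6 TPM against 572 and 706 TPM and 821 and 269 TPM. The cystatins CST1 and CST4, secreted inhibitors of cysteine proteases, were 2 of the 3 cystatins of 7 tested that were lower than in both, with CST1 at 274 and 300.4 TPM against 2171 and 7977 TPM and 8377 and 5630 TPM. PRSS2, NEFL, CEBPZOS and CDKN2B-AS1, an antisense RNA whose reads may be shared with the genes it overlaps, complete the 10 largest of this direction. NPPB, MYL7 and CST1 were thus above or near WT H1 cells in SUZ12-/- H1 cells and higher still in the other lines.

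**Figure D4:**
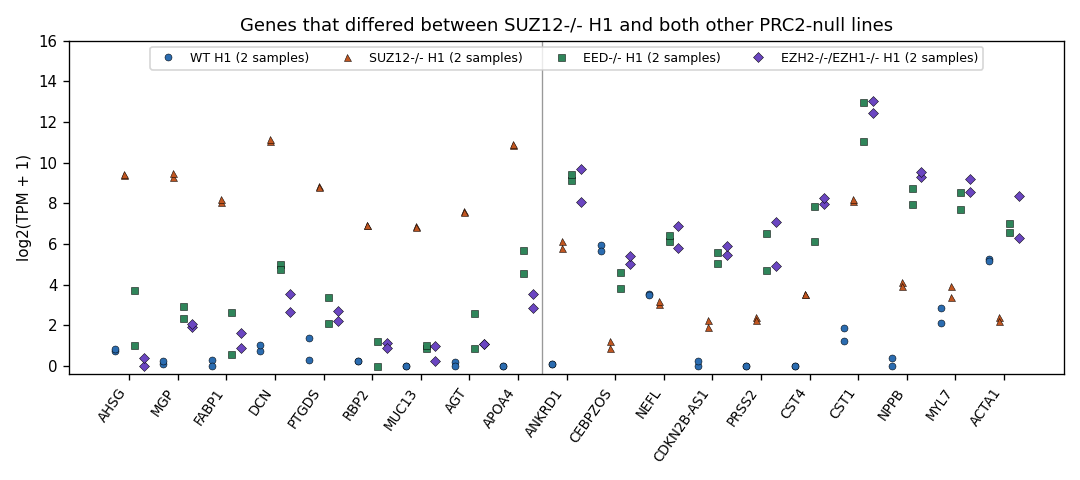
Log2(TPM + 1) (y axis) of 9 of the 10 genes highest (left of the line) and the 10 lowest (right) in SUZ12-/- H1 against both other PRC2-null lines, for the 2 samples each of WT H1, SUZ12-/- H1, EED-/- H1 and EZH2-/-/EZH1-/- H1 cells. On the left the SUZ12-/- H1 triangles stand alone at the top, as for AHSG with 673 and 699.6 TPM, and on the right they lie below the squares and diamonds of the other lines.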

How the data were processed

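RNA was sequenced from WT H1 and SUZ12-/- H1 cells as TruSeq libraries. The authors aligned reads with Bowtie to an mRNA reference on GRCh38/hg38 and deposited gene values as TPM estimated with RSEM. The labels also list hg19. TPM from RSEM splits reads among similar genes and holds no depth, so count models were not used and no counting interval is given.

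Genes with at least 1 TPM in at least 2 of the 4 samples were tested with limma 3.58.1 in R 4.3.3 on log2(TPM + 1), with moderated variances (trend and robust). A call needed an adjusted p (Benjamini-Hochberg) no higher than 1% and at least a 3-fold change, thresholds that the methods of the study give for its count test. Exact permutation of 2 against 2 samples cannot reach a p under 0.05. In data simulated on these 17238 genes, 71% of 100 genes changed 4-fold and 83% of 100 changed 8-fold were called, with 1 false call. The changed genes were drawn only from those with a mean log2(TPM + 1) above 3 in WT H1 cells. These rates therefore do not describe genes near 0 in WT H1 cells. The comparison with EED-/- H1 and EZH2-/-/EZH1-/- H1 cells used a fit of 12 samples (WT H1 and the 5 knockout lines). The 7 other samples of the series were not used here.

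Gene lists and families, and the genes shown, were chosen with earlier results of these data known. Within each list, named genes were up to 6 past the thresholds with the largest differences and up to 4 others with the highest TPM, with the 15 largest rises and falls overall and the 10 highest and lowest against both other lines. ACTC1, ALB, CCNB1, CCNE2, CGB, CGB5, CHRDL1, CYP3A4, GATA1, HBE1, INHBE, INSL4, LIN28A, NANOG, PSG1, PSG3, PSG4, PTPRC, SNRPN, TAT, TNNT2 and UGT1A1 were chosen after their values were seen. TUBB3 is listed under 2 identifiers, and the one with the higher TPM was used. Lists were described by counts and medians without a set test. Alternatives were another pseudocount, filter, scaling, test, threshold and sample set. Python 3.11.15 was used for summaries and matplotlib 3.10.9 for plots. Some genes that these rules would name are not reported here.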

Additional observations from a re-analysis of the deposited data

Results flagged for a closer look

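For 19 genes the SUZ12-/- H1 samples differed from both EED-/- H1 and EZH2-/-/EZH1-/- H1 cells by the limma test of each difference (fit of 12 samples, 2 samples per line), and these were among the 10 highest and 10 lowest by the smaller of both log2 differences. This difference was 7.02 for AHSG, 6.74 for MGP, 6.49 for FABP1, 6.24 for DCN and 6.07 for PTGDS. It was 5.91 for RBP2, 5.87 for MUC13, 5.84 for AGT and 5.75 for APOA4. On the lower side it was -4.50 for ACTA1, -4.46 for MYL7, -4.32 for NPPB, -3.85 for CST1 and -3.46 for CST4. For PRSS2, CDKN2B-AS1, NEFL, CEBPZOS and ANKRD1 it was -3.31, -3.24, -3.16, -3.16 and -2.90.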

How the results depend on the processing

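Against the 2885 genes that rose and 1047 that fell, 1371 rose when at least 1 TPM was required in all 4 samples, which leaves out genes near 0 in WT H1 cells. Testing against a fold change of 1.5 gave 1923 that fell, and an adjusted p of 5% with no fold minimum gave 7580 and 5025. Leaving out 1 of the 4 samples gave 0 to 2930 that rose and 0 to 1073 that fell, with 0 where an SUZ12-/- H1 clone was left out, the lone clone being assumed to vary like WT H1 cells. A fit of 12 samples without DK30 or DK89, chosen after seeing the data, gave 2348 and 2424 that rose and 872 and 843 that fell. Of the 499 and 151 genes higher and lower than in both other lines, the counts became 311 above at a pseudocount of 0.1, 177 and 31 in a fit of only these 6 samples, and 193 above with at least 1 TPM in all 6. Leaving out 1 sample gave 304 to 604 and 45 to 162. Of 206 genes named, 153 lost their call without either clone, 3 (TNNT2, ACTC1 and PRSS2) in the fit of 12 samples, TNNT2 and C17orf96 with median-ratio scaling or without WT H1 sample 1, and CCNE2 without WT H1 sample 2. Among them, 5 that did not pass changed sign of a small log2 difference: leaving out 1 sample gave -0.0006 to 0.1848 for ELN, -0.0633 to 0.19 for TFCP2L1 (-0.0633 also in the 12 samples without DK89), -0.2481 to 0.1228 for KDR, -0.2429 to 0.2961 for NODAL (-0.0055 in the 12 samples without DK30, -0.0385 with median-ratio scaling) and -0.1287 to 0.0538 for TPM2 (0.0242 without DK30 in either fit). The causes were not tested. No paired analysis was possible because the titles name the SUZ12-/- H1 samples by clone and give no replicate number that both groups share. TPM gives no depth, so what depth limits could not be assessed.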

Other observations

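Clone DK30 lay above clone DK89 in 22 of 30 genes of core and primed pluripotency and in 25 of 28 genes of DNA replication and mitosis, against 9700 of all 17238 genes. The median absolute log2 difference over the pluripotency genes was 0.21 between the clones and 0.25 between the WT H1 samples. For POU5F1 the clones had 91.0 and 47.0 TPM and for DNMT3B 24.9 and 13.2 TPM. With 1 sample per clone these differences could not be tested.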
